A study of Homo sapiens with 8 samples.

Results

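Clade B serpins are the branch of the serpin family that mostly stays inside cells, and 7 of them were followed here in human breast epithelial cells with less LATS1/2, less p53 or less of both. The members are the entries of the deposited expression table whose gene symbol is SERPINB1, SERPINB2, SERPINB5, SERPINB6, SERPINB7, SERPINB8 or SERPINB13, 7 of 29991 entries in all. Messenger RNA had been sequenced from MCF10A cells, an immortalised and non-tumorigenic line with basal features, in 8 libraries. All cells had been transfected with siRNA. The siRNAs were those against LATS1, LATS2 and p53 together (siLATS_p53), against LATS1 and LATS2 (siLATS), against p53 (sip53), or a control siRNA (siControl). Each of the 4 groups had 2 libraries, which per the labels came from independent batches of cells numbered 1 and 2. The model is a single cell line, and knockdown lowers a transcript without removing it.

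A serpin presents a flexible reactive centre loop as bait, and an inhibitory serpin traps the protease that cleaves the loop in a covalent complex. Clade B members lack a classical secretion signal, and several guard epithelial cells against proteases released within them or around them. SERPINB2 (plasminogen activator inhibitor 2) blocks urokinase and tissue plasminogen activator. SERPINB13 (headpin) blocks cathepsins K and L, SERPINB1 neutrophil elastase and related proteases, SERPINB6 cathepsin G and thrombin, and SERPINB8 the proprotein convertase furin. SERPINB7 (megsin) is mutated in a hereditary palmoplantar keratosis. SERPINB5 (maspin) is not an inhibitor in the usual sense, is a marker of basal and myoepithelial breast cells, and has been described as a gene that p53 and p63 can activate. LATS kinases restrain the coactivators YAP and TAZ, and p53 is a transcription factor.

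The deposited values were log2 expression levels with a floor of 5, so that a difference of 1 is a doubling. Sequencing depth is unknown, and no length scaling is stated, so levels are compared between libraries and not between genes. All 7 members lay above the floor in all 8 libraries and were tested, among 12315 entries that were above it in at least 2 libraries. LATS1 was between 7.90 and 7.97 in siLATS_p53 and between 7.93 and 8.10 in siLATS, against 9.54 and 9.64 in siControl. LATS2 was between 8.63 and 8.81 in the 4 libraries with LATS siRNA, against 9.92 and 10.22 in siControl. Of the basal markers, 7 of 7 were above the floor in every library, and of the luminal markers 5 of 6, with KRT19 at the floor. The blood cell markers PTPRC, LYZ and ITGAM, the fibroblast markers COL1A2, COL3A1, LUM and PDGFRB, and the endothelial markers PECAM1, CDH5 and VWF were at the floor in every library. Other genes of these lists were not. CD68, CD14, CSF1R and COL1A1 were above the floor in all 8 libraries, DCN in 6 and KDR in the 2 siLATS_p53 libraries. CSF1R was 8.67 and 7.78 in siLATS_p53, 8.77 and 7.62 in siLATS and 7.07 and 6.10 in sip53, against 7.21 and 6.38 in siControl, higher with LATS siRNA, and its part in the serpin changes was not tested.

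LATS1/2 knockdown moved the family in opposite directions. SERPINB2, SERPINB7 and SERPINB13 rose 2.88-, 2.88- and 2.80-fold in siLATS relative to siControl, while SERPINB5 fell 2.64-fold and SERPINB1 fell 1.60-fold. That is 5 of 7 members passing the test (limma, Benjamini-Hochberg adjusted p under 0.05 over all entries tested), 3 higher and 2 lower, where 7.7% of all entries passed, 2.81% higher and 4.89% lower. The median difference of the 7 members was -0.25, against -0.07 for all entries tested. After p53 knockdown alone 1 of 7 passed, SERPINB1, which fell, where 3.86% of all entries passed, 1.76% higher and 2.1% lower. After combined knockdown 4 of 7 passed relative to siControl, the same 3 higher and SERPINB5 lower, where 14.6% of all entries passed, 9.07% higher and 5.48% lower. With the batch as a term in the fit 7 of 7 passed in siLATS, 4 of 7 in sip53 and 5 of 7 in siLATS_p53, where 32%, 26% and 39.2% of all entries did. The median differences of the members were -0.26 for sip53 and 0.17 for siLATS_p53, against 0.06 and 0.08 for all entries tested. These 3 comparisons share the siControl libraries, so their resemblance is not independent evidence.

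**Figure D1:**
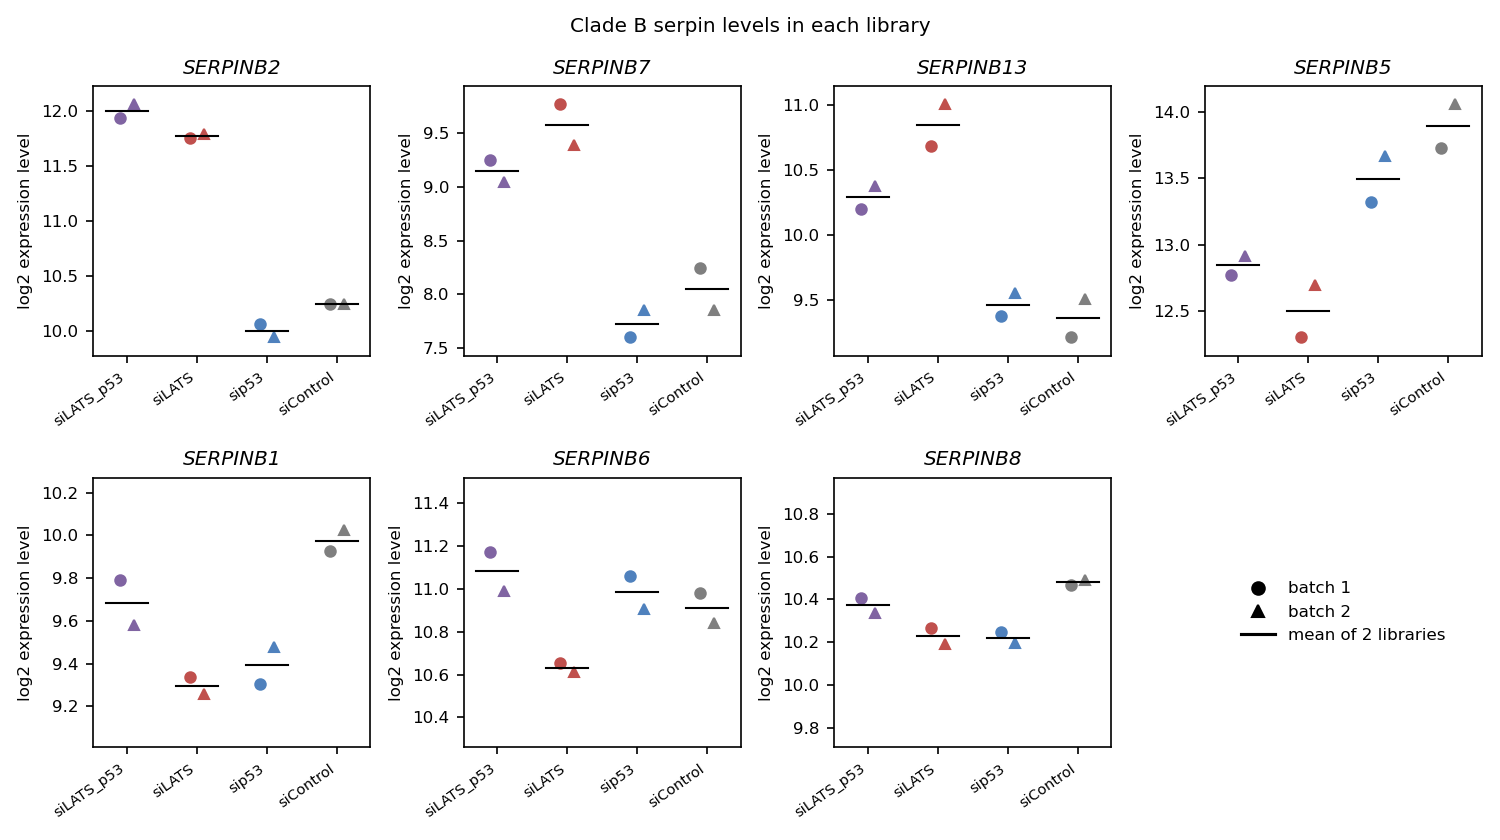
Log2 expression level of each member in each library, by siRNA group (x axis), with circles for batch 1, triangles for batch 2 and a line at the mean of the 2 libraries; every y axis spans at least 1.2 log2 units. SERPINB2, SERPINB7 and SERPINB13 were higher in all 4 libraries with LATS siRNA than in the other 4, and SERPINB5 was lower.

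In bulk RNA a change in the share of cells that express a gene and a change in RNA per cell cannot be told apart. The summed linear level of the luminal markers also moved with LATS siRNA. It was 31772 and 39866 in siLATS_p53, 31125 and 37819 in siLATS and 11974 and 16308 in sip53, against 12539 and 16401 in siControl. The basal markers summed to 193386 and 236808 in siLATS_p53, 232496 and 282782 in siLATS and 196863 and 252175 in sip53, against 269357 and 350360 in siControl. The part of these marker shifts in the serpin changes was not tested.

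SERPINB2 had the largest rise of the 7 members in siLATS_p53. Its level was 11.93 and 12.06 in siLATS_p53, 11.76 and 11.80 in siLATS, 10.07 and 9.94 in sip53, and 10.25 in each siControl library. The 4 libraries with LATS siRNA lay above the other 4 with no overlap. The difference was 1.53 ± 0.09 (SE) for siLATS and 1.75 ± 0.09 for siLATS_p53 relative to siControl (limma, adjusted p = 0.000558 and 0.000286). On top of p53 knockdown LATS siRNA raised it by 1.99 ± 0.09, a 3.98-fold rise of siLATS_p53 over sip53 (limma, adjusted p = 0.000446). These 3 calls held whichever of the 8 libraries was left out.

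The difference of SERPINB2 after p53 knockdown alone was -0.24 ± 0.09 and did not pass (limma, adjusted p = 0.168, 95% interval -0.44 to -0.04). With a batch block, a term for the batch in the fit, it passed as a fall (limma, adjusted p = 0.0353). The highest to the lowest group ran siLATS_p53, siLATS, siControl, sip53, and no neighbouring groups in that order overlapped. Neither neighbouring pair outside the LATS step passed without the block, the siLATS_p53 over siLATS difference being 0.22 ± 0.09 (limma, adjusted p = 0.120; 0.0324 with a batch block, 0.535 with the block and rescaling).

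SERPINB7 and SERPINB13 rose with LATS siRNA as SERPINB2 did, but stood lower in siLATS_p53 than in siLATS. SERPINB7 was 9.25 and 9.04 in siLATS_p53, 9.77 and 9.39 in siLATS, 7.60 and 7.85 in sip53, and 8.25 and 7.85 in siControl. SERPINB13 was 10.20 and 10.38 in siLATS_p53, 10.69 and 11.01 in siLATS, 9.38 and 9.56 in sip53, and 9.21 and 9.51 in siControl. For each gene the libraries with LATS siRNA lay above all libraries without it. The sip53 and siControl libraries of SERPINB13 overlapped, and those of SERPINB7 did not but came together at 7.85 in the second batch.

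The SERPINB7 difference from siControl was 1.10 ± 0.20 in siLATS_p53 and 1.53 ± 0.20 in siLATS (limma, adjusted p = 0.0132 and 0.00804). Over sip53, siLATS_p53 was higher by 1.42 ± 0.20 (limma, adjusted p = 0.0121). The siLATS call was lost without siLATS replicate 1 (limma, adjusted p = 0.0945). The siLATS_p53 call against siControl was lost without siControl replicate 2, siLATS_p53 replicate 1 or siLATS_p53 replicate 2 (limma, adjusted p = 0.0557, 0.0907 and 0.0604). The call against sip53 was lost without any 1 of the 4 libraries compared (limma, adjusted p = 0.0754 to 0.107). The 3 calls passed with a batch block.

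The SERPINB13 difference from siControl was 0.93 ± 0.15 in siLATS_p53 and 1.49 ± 0.15 in siLATS (limma, adjusted p = 0.0101 and 0.00367). Over sip53, siLATS_p53 was higher by 0.82 ± 0.15 (limma, adjusted p = 0.0321). The siLATS call held whichever library was left out. The siLATS_p53 call was lost without siControl replicate 1, siLATS_p53 replicate 1 or siLATS_p53 replicate 2 (limma, adjusted p = 0.0581, 0.0552 and 0.072). The call against sip53 was lost without any 1 library of siLATS, sip53 or siLATS_p53 (limma, adjusted p = 0.0631 to 0.187) and without the mean-variance trend (0.0502). With a batch block each of these passed.

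Adding p53 siRNA to LATS siRNA lowered neither gene beyond the threshold without the block. The siLATS_p53 minus siLATS difference was -0.56 ± 0.15 for SERPINB13 (limma, adjusted p = 0.0515, 95% interval -0.92 to -0.20) and -0.43 ± 0.20 for SERPINB7 (limma, adjusted p = 0.172). With a batch block both passed as falls (limma, adjusted p = 0.000195 and 0.0291). In this comparison 1 of 7 members passed without the block, SERPINB6, which was higher, where 14.5% of all entries passed, 11.3% higher and 3.22% lower. With the block 6 of 7 passed, where 43.5% of all entries did. The median of all entries was 0.15 in this comparison and 0.00 after rescaling by medians of ratios. Rescaled, the SERPINB13 difference was -0.71 ± 0.16 and passed (limma, adjusted p = 0.0366).

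SERPINB5, the maspin gene, went the other way. It was 12.77 and 12.92 in siLATS_p53, 12.30 and 12.70 in siLATS, 13.32 and 13.67 in sip53, and 13.73 and 14.06 in siControl. The libraries with LATS siRNA lay below all libraries without it, and batch 2 was above batch 1 in each of the 4 groups. The groups ran siControl, sip53, siLATS_p53, siLATS from the highest to the lowest, with no overlap between neighbours.

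The SERPINB5 difference from siControl was -1.05 ± 0.18 in siLATS_p53 and -1.40 ± 0.18 in siLATS (limma, adjusted p = 0.0115 and 0.00815). Within batches it was -0.96 and -1.14 in siLATS_p53 and -1.43 and -1.37 in siLATS. Without siControl replicate 2 both calls were lost (limma, adjusted p = 0.0549 and 0.0517). The siLATS call was also lost without siLATS replicate 1 (0.0927), and the siLATS_p53 call without siLATS_p53 replicate 1 or 2 (0.0882 and 0.0643). After p53 knockdown alone SERPINB5 differed by -0.40 ± 0.18 and did not pass (limma, adjusted p = 0.253, 95% interval -0.83 to 0.02). With a batch block that difference passed (limma, adjusted p = 0.00126), and so did siLATS_p53 over siLATS, 0.35 (adjusted p = 0.00177), and siLATS_p53 over sip53, -0.65 (adjusted p = 2.18e-05).

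TP63, which encodes the basal transcription factor p63, was the basal marker set beside SERPINB5 because of the link described above. It was 9.89 and 10.25 in siLATS_p53, 10.43 and 10.74 in siLATS, 10.29 and 10.51 in sip53, and 10.86 and 11.12 in siControl. TP63 fell by 0.92 ± 0.17 in siLATS_p53 relative to siControl (limma, adjusted p = 0.0146). Its differences of -0.41 in siLATS and -0.59 in sip53 did not pass without the block (limma, adjusted p = 0.194 and 0.109) and passed with it (0.00138 and 0.00013). TP63 was lowest in siLATS_p53, and SERPINB5 in siLATS.

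SERPINB1 was the single member that passed as lower, without the block, after each knockdown alone. It was 9.79 and 9.58 in siLATS_p53, 9.34 and 9.26 in siLATS, 9.31 and 9.48 in sip53, and 9.93 and 10.02 in siControl. The siLATS and sip53 libraries overlapped, and the siLATS_p53 libraries lay between them and siControl. The difference from siControl was -0.68 ± 0.12 in siLATS and -0.58 ± 0.12 in sip53 (limma, adjusted p = 0.0193 and 0.0446). It was -0.29 ± 0.12 in siLATS_p53 (limma, adjusted p = 0.144; 0.0418 with a batch block). Over siLATS, siLATS_p53 was higher by 0.39 ± 0.12 (limma, adjusted p = 0.0655; 0.00919 with a batch block, 0.0913 with the block and rescaling). Neither single-knockdown call held throughout when libraries were left out in turn. The siLATS call was lost without any 1 of the 4 siLATS and siControl libraries (limma, adjusted p = 0.0731 to 0.134). The sip53 call was lost whichever of the 8 libraries was left out (limma, adjusted p = 0.0621 to 0.258) and without the mean-variance trend (0.0591). Both calls passed with a batch block (limma, adjusted p = 0.000307 and 0.0013).

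SERPINB6 and SERPINB8 moved little. SERPINB6 was 11.17 and 10.99 in siLATS_p53, 10.66 and 10.61 in siLATS, 11.06 and 10.91 in sip53, and 10.98 and 10.84 in siControl. Its siLATS libraries were the lowest, and its sip53 libraries overlapped with those of siLATS_p53 and siControl. SERPINB6 was higher in siLATS_p53 than in siLATS by 0.45 ± 0.10 (limma, adjusted p = 0.0291). Relative to the shift of all entries in that comparison the difference was 0.29 ± 0.09 and did not pass (limma, adjusted p = 0.0898; 0.00551 with a batch block as well). The call was also lost without either siLATS library, either sip53 library or siLATS_p53 replicate 1 (limma, adjusted p = 0.0526 to 0.143). Relative to siControl it differed by -0.28 ± 0.10 in siLATS (limma, adjusted p = 0.142; 0.0108 with a batch block).

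SERPINB8 was 10.41 and 10.34 in siLATS_p53, 10.27 and 10.19 in siLATS, 10.25 and 10.19 in sip53, and 10.47 and 10.49 in siControl. Its 8 libraries spanned less than those of any other member, and the siLATS and sip53 libraries overlapped. SERPINB8 passed in no comparison without the block. The difference from siControl was -0.25 ± 0.08 in siLATS (limma, adjusted p = 0.110) and -0.26 ± 0.08 in sip53 (limma, adjusted p = 0.134). With a batch block both passed (limma, adjusted p = 0.0252 and 0.0263), the siLATS difference not with rescaling as well (0.107).

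**Figure D2:**
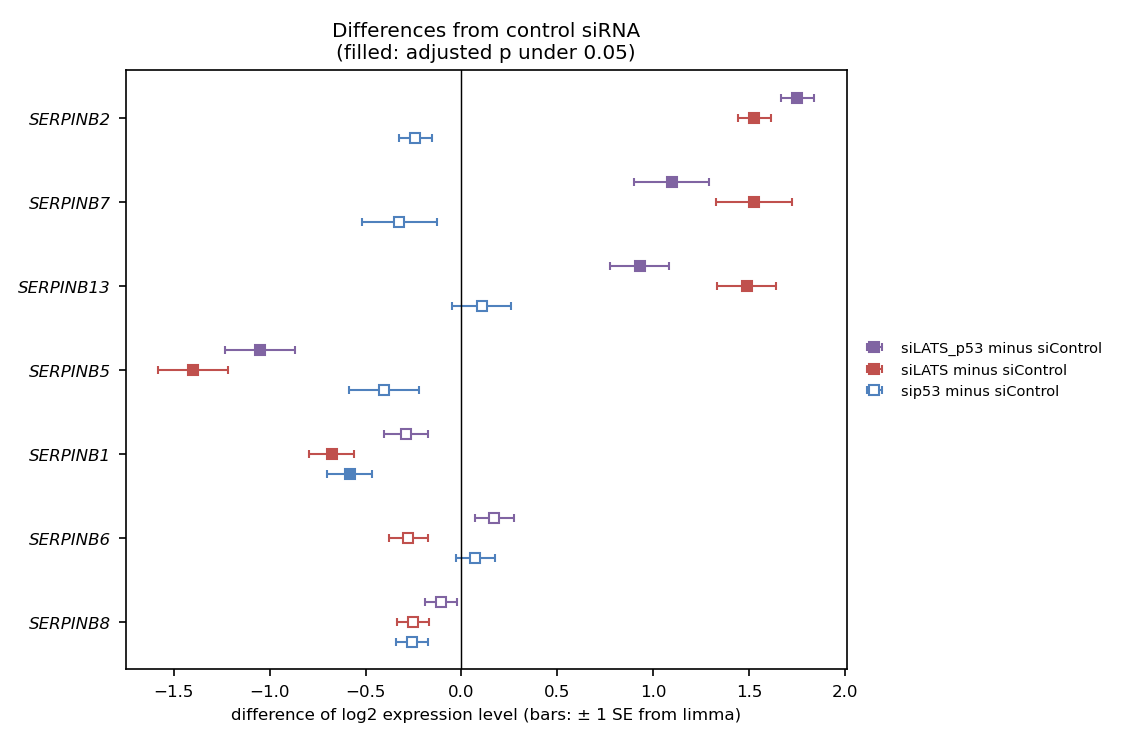
Difference of log2 expression level from siControl (x axis) for each member (y axis) in siLATS_p53 (purple), siLATS (red) and sip53 (blue), with bars of 1 SE from limma and filled symbols where the adjusted p is under 0.05. SERPINB2, SERPINB7 and SERPINB13 lie to the right under both treatments with LATS siRNA, between 0.93 and 1.75, and SERPINB5 to the left.

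Comparing siLATS_p53 with sip53 asks what LATS1/2 knockdown did in cells with less p53. SERPINB2, SERPINB7 and SERPINB13 were higher, so that 3 of 7 passed, where 3.66% of all entries did, 2.54% higher and 1.12% lower, and with a batch block 4 of 7, where 22.1% did. The median difference of the members was 0.29, against 0.01 for all entries. SERPINB5 was lower by 0.65 ± 0.18 and did not pass without the block (limma, adjusted p = 0.111). The direct test of whether LATS siRNA acted differently with and without p53 siRNA is the interaction. Without the block 0 of 7 members passed it, where 0% of all entries did. At an unadjusted p under 0.05 there were 807 of the 12315 entries tested, and 6 of the 7 members were among them. With the block 4 of 7 passed, where 2.03% of all entries did.

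The interaction was largest for SERPINB1. LATS siRNA changed SERPINB1 by 0.49 and 0.10 in the 2 batches with p53 siRNA, against -0.59 and -0.76 without it, so the sign differed in each batch. The interaction was 0.97 ± 0.17 (limma, adjusted p = 0.740; 0.00934 with a batch block). For SERPINB5 the LATS effect was -0.55 and -0.75 with p53 siRNA, against -1.43 and -1.37 without it, an interaction of 0.75 ± 0.26 (limma, adjusted p = 0.740; 0.00779 with the block). For SERPINB13 it was 0.82 and 0.83 with p53 siRNA, against 1.47 and 1.50 without it, an interaction of -0.66 ± 0.22 (limma, adjusted p = 0.740; 0.0173 with the block). Thus SERPINB5 and SERPINB13, which moved in opposite directions, each moved less in the presence of p53 siRNA, in each batch.

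SERPINB2 moved more. Its LATS effect was 1.87 and 2.12 with p53 siRNA, against 1.51 and 1.55 without it, an interaction of 0.47 ± 0.12 (limma, adjusted p = 0.740). It passed with the block (limma, adjusted p = 0.0473) but not with the block and rescaling (0.129). The SERPINB7 interaction was -0.10 ± 0.28 (limma, adjusted p = 0.955, 95% interval -0.75 to 0.54).

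**Figure D3:**
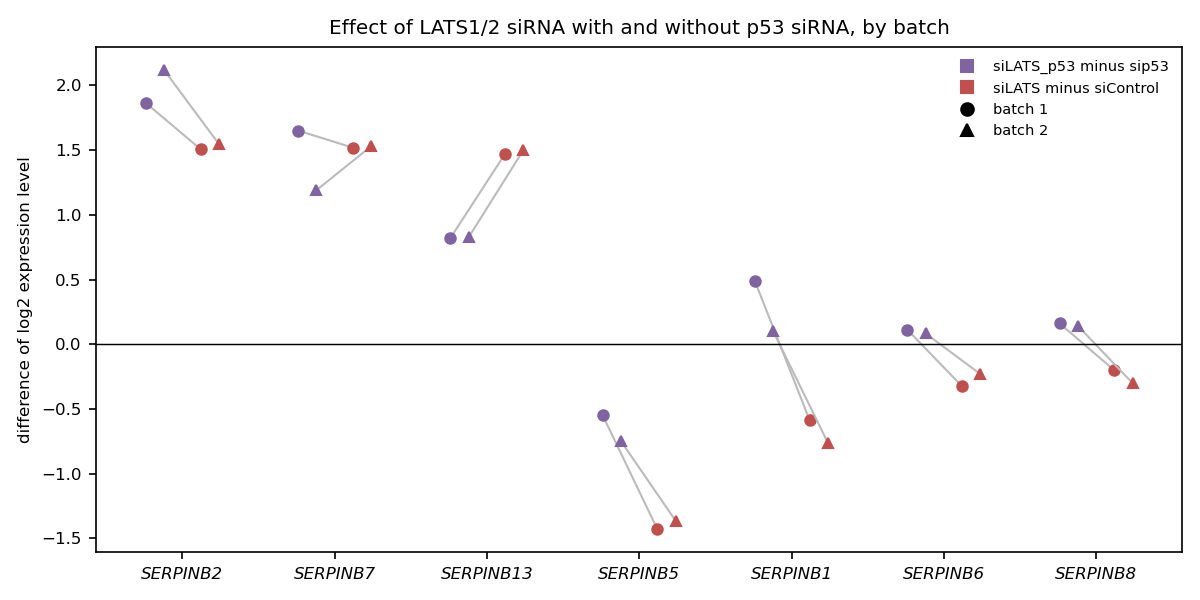
Effect of LATS siRNA on the log2 expression level of each member within each batch (circles for batch 1, triangles for batch 2), with p53 siRNA (siLATS_p53 minus sip53, purple) and without it (siLATS minus siControl, red), joined by a line within a batch. For SERPINB1, SERPINB6 and SERPINB8 the effect was above 0 with p53 siRNA and below 0 without it in each batch.

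Without the block, the chromosome 18 cluster held members that passed as higher in siLATS beside 1 that passed as lower. By the gene order of the RefSeq annotation of GRCh38.p14, 10 clade B serpin genes lie in a cluster on human chromosome 18, 5 of them members here, and 3 on chromosome 6, with SERPINB1 and SERPINB6 among them. On chromosome 18 SERPINB5, which fell, is the first serpin of the cluster, and SERPINB13, SERPINB7 and SERPINB2, which rose, follow in that order, with SERPINB8 last. SERPINB4 and SERPINB3 lie between SERPINB13 and SERPINB7. They differed by -0.16 and -0.52 in siLATS and did not pass without the block (limma, adjusted p = 0.814 and 0.380). With it SERPINB3 and SERPINB8 passed as lower (limma, adjusted p = 0.0184 and 0.0252). SERPINB12, SERPINB11 and SERPINB10, which lie among the serpins of this cluster, were at the floor in all libraries. So were HMSD inside the cluster and the cadherin genes CDH7 and CDH19 after it. The genes before the cluster, KDSR and VPS4B, differed by -0.12 ± 0.11 and -0.17 ± 0.08 in siLATS relative to siControl (limma, adjusted p = 0.560 and 0.250). On chromosome 6 SERPINB9 was at the floor. The differences of SERPINB1, SERPINB6 and their flanking genes WRNIP1, NQO2 and RIPK1 in siLATS were all below 0. The median of all entries tested was also below 0, at -0.074, and RIPK1 was at -0.065. MYLK4, the flanking gene before WRNIP1, was above the floor in 3 libraries and differed by -0.05 (limma, adjusted p = 0.899). WRNIP1, NQO2 and RIPK1 did not pass without the block (limma, adjusted p = 0.291, 0.134 and 0.752). With it NQO2, which follows SERPINB6 and differed by -0.51 ± 0.18, passed (limma, adjusted p = 0.0283).

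VPS4B, which encodes an ATPase of membrane scission, was a neighbour with calls in other comparisons. It fell by 0.74 ± 0.08 in siLATS_p53 and by 0.57 ± 0.08 in sip53 relative to siControl (limma, adjusted p = 0.00278 and 0.0212). It was also lower in siLATS_p53 than in siLATS, by 0.56 ± 0.08 (limma, adjusted p = 0.00861). Its neighbour SERPINB5 was higher by 0.35 in that comparison, which did not pass without the block.

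**Figure D4:**
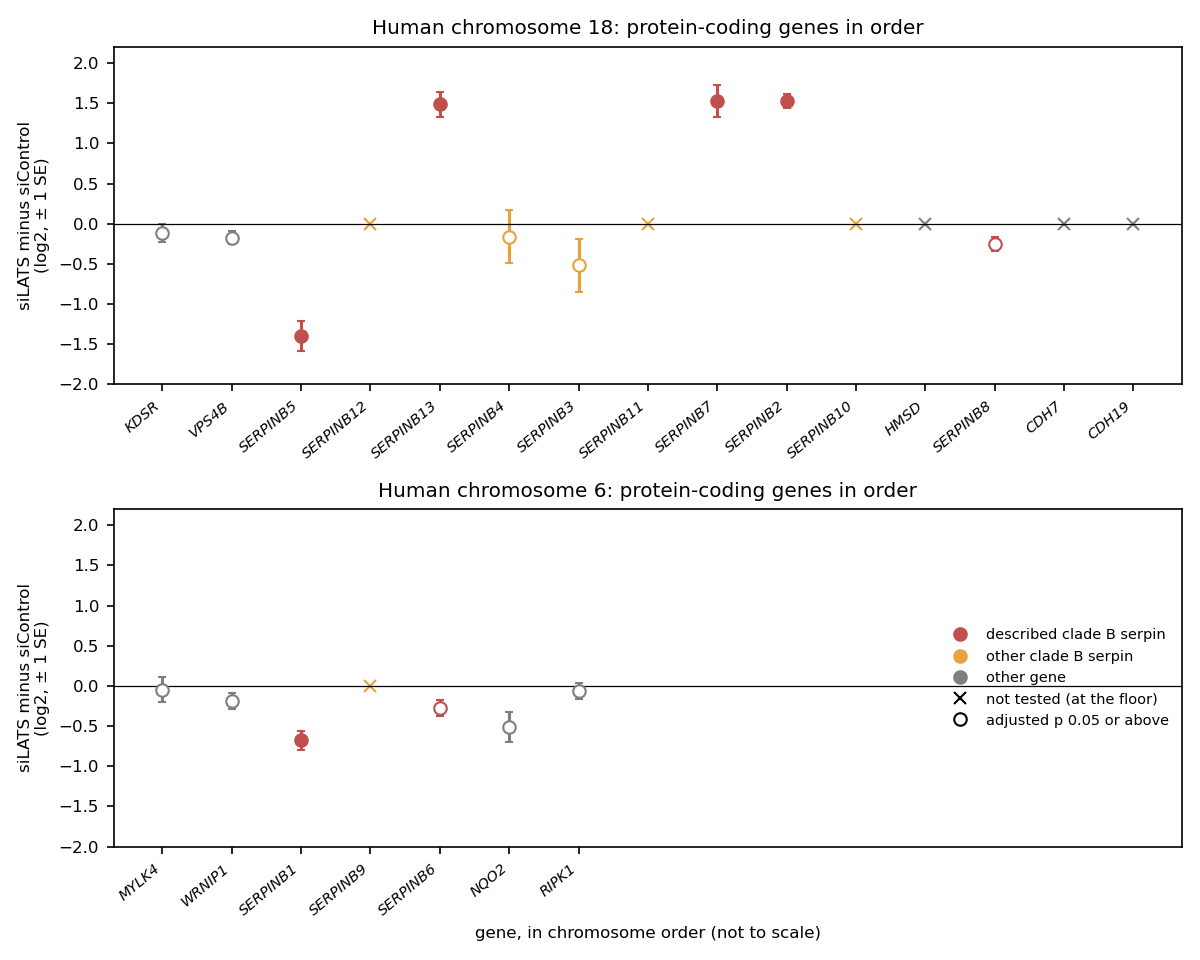
Difference of log2 expression level between siLATS and siControl (y axis, with bars of 1 SE) for protein-coding genes in chromosome order (x axis, not to scale), on chromosomes 18 and 6. Red marks the members, orange the other clade B serpins and grey the other genes; open symbols did not pass, and crosses are genes that were not tested because they were at the floor. On chromosome 18 SERPINB5 lies below 0, while SERPINB13, SERPINB7 and SERPINB2 lie near 1.5.

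The promoters of the chromosome 18 members are shown because, without the block, 3 of those genes passed as higher in siLATS and 1 as lower. In the RefSeq promoter table (GRCh38.p14) all 7 members matched, with 12 start sites, each given as 250 bases before and 50 after the start. The AP-1 motif TGANTCA reads the same on both strands. It occurred for 5 of 7 members, those on chromosome 18, against 9.37% of all 27305 genes in the table. It was absent from the windows of SERPINB1 and SERPINB6. Counted by start site, the motif occurred in 6 of the 12, against 7.71% of all 35116 promoters. The start sites printed below were picked because their windows held a match. The TEAD motif GGAATG, searched on both strands, occurred for 0 of 7 members and 16.7% of all genes, and the p53 half-site for 0 of 7 and 8.06%. A match describes letters and not binding. The search took exact matches only, so a member with no match may have sites elsewhere, or within the window in other letters. Below are the 250 bases before 1 start site of each, 5′ to 3′ on the plus strand of GRCh38.p14, with AP-1 matches in capitals, at chr18:63476708-63476957 for SERPINB5, chr18:63587093-63587342 for SERPINB13, chr18:63775168-63775417 for SERPINB7, chr18:63887455-63887704 for SERPINB2 and chr18:63969831-63970080 for SERPINB8.
SERPINB2: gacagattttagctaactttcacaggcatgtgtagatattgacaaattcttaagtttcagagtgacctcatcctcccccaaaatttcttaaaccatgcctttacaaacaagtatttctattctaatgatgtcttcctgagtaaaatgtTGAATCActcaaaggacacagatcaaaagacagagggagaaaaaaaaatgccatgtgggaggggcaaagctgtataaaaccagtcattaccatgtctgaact
SERPINB7: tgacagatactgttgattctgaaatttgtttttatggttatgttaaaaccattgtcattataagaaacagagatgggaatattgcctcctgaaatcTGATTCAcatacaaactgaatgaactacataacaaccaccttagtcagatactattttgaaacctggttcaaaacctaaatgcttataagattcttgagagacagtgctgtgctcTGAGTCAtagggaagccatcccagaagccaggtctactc
SERPINB13: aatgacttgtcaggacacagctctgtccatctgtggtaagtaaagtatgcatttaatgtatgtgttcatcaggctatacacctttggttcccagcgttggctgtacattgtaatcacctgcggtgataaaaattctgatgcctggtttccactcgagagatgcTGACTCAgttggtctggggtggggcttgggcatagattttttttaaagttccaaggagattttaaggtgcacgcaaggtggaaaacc
SERPINB5: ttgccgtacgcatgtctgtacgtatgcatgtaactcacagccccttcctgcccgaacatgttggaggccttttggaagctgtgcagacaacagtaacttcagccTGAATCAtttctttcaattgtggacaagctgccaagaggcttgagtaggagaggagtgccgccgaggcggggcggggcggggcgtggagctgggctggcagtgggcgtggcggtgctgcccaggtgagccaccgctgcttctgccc
SERPINB8: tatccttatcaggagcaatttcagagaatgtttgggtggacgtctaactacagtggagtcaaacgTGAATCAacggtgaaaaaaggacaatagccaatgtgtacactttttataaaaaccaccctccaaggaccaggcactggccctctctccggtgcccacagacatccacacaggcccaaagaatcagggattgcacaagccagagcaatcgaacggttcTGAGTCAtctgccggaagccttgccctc

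The same letters stood upstream of genes that, without the block, rose, fell or did not pass in siLATS. The match began at base -102 in SERPINB2 and at base -146 in SERPINB5, counted from the start site, and read TGAATCA in each. SERPINB2 rose and SERPINB5 fell with LATS siRNA. The part of the matches in these changes was not tested. In SERPINB13 the match began at base -87 and read TGACTCA. SERPINB7, which rose, and SERPINB8, which did not pass without the block, each held 2 matches, the nearer one reading TGAGTCA, at bases -39 and -28.

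Of the 6 clade B serpins outside the 7 members, 2 could be tested. SERPINB9, SERPINB10, SERPINB11 and SERPINB12 were at the floor in all 8 libraries. SERPINB3 and SERPINB4, the squamous cell carcinoma antigens, are near-identical copies, so that reads may be split between them and their values are uncertain. SERPINB3 was 6.92 and 7.27 in siLATS_p53, 6.38 and 7.03 in siLATS, 7.59 and 8.06 in sip53, and 6.84 and 7.61 in siControl. SERPINB4 was above the floor in 4 libraries, among them both of sip53, at 6.09 and 5.87. Neither passed in any comparison without the block. With it SERPINB3 was lower in siLATS (-0.52, limma, adjusted p = 0.0184) and higher in sip53 (0.60, adjusted p = 0.00999) relative to siControl, and lower in siLATS_p53 than in sip53 (-0.74, adjusted p = 0.00314). SERPINB4 was also higher in sip53 than in siControl with the block (0.82, limma, adjusted p = 0.0204). Its siControl libraries were at 5.32 and at the floor of 5. The size of that difference therefore depends on the floor, and the call carries no weight here.

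The plasminogen activation genes around SERPINB2 rose in part with it. Of 9 entries tested from a list of 12, 3 rose in siLATS_p53, 3 rose and 1 fell in siLATS, and 1 rose in sip53, all relative to siControl. SERPINB2 is among the risers with LATS siRNA, and 14.6%, 7.7% and 3.86% of all entries passed in these groups. Under the batch block the sip53 count was 1 higher and 5 lower, and the other counts were the same. With the block 39.2%, 32% and 26% of all entries passed in siLATS_p53, siLATS and sip53. PLAUR, the urokinase receptor gene, rose by 1.15 ± 0.09 in siLATS_p53, 0.43 ± 0.09 in siLATS and 0.56 ± 0.09 in sip53 (limma, adjusted p = 0.00107, 0.0343 and 0.0274). PLAT, which encodes tissue plasminogen activator, rose by 0.54 ± 0.10 in siLATS_p53 and 0.66 ± 0.10 in siLATS (limma, adjusted p = 0.013 and 0.0107). The third riser was SERPINB2 itself. The medians of the list were 0.07 for siLATS_p53, 0.07 for siLATS and -0.23 for sip53, against 0.08, -0.07 and 0.06 for all entries tested.

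PLAU, which encodes urokinase, the other protease that SERPINB2 blocks, was 12.77 and 13.15 in siLATS_p53, 12.90 and 12.89 in siLATS, 12.25 and 12.31 in sip53, and 12.83 and 12.82 in siControl. The sip53 libraries lay below all others. PLAU was higher in siLATS_p53 than in sip53 by 0.68 ± 0.12 (limma, adjusted p = 0.0288), in the same comparison as the largest rise of SERPINB2. In sip53 against siControl it differed by -0.55 ± 0.12 (limma, adjusted p = 0.0562; 0.000585 with a batch block).

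The gene that fell was LRP1, which encodes a clearance receptor for complexes of serpins with their proteases. It fell by 0.50 ± 0.11 in siLATS (limma, adjusted p = 0.0381).

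**Figure D5:**
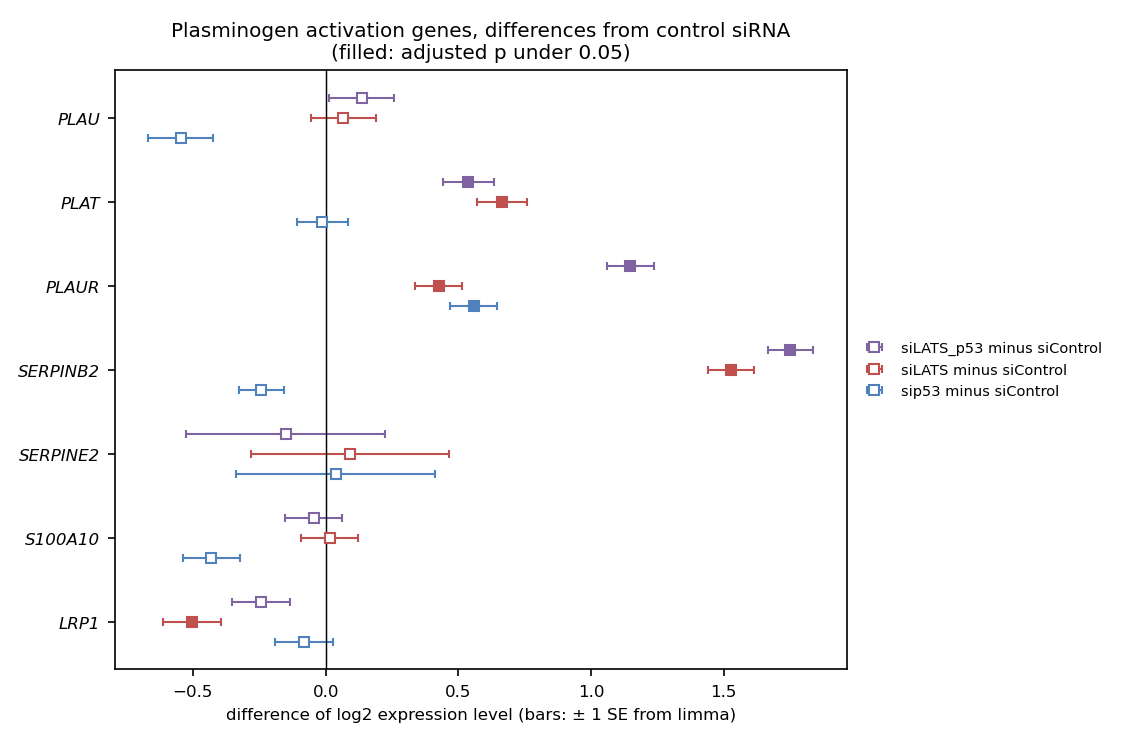
Difference of log2 expression level from siControl (x axis) for genes of plasminogen activation (y axis) in siLATS_p53 (purple), siLATS (red) and sip53 (blue), with bars of 1 SE from limma and filled symbols where the adjusted p is under 0.05. SERPINB2 lies far to the right with LATS siRNA, at 1.75 in siLATS_p53 and 1.53 in siLATS, while LRP1 lies to the left in siLATS, at -0.50.

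Of the proteases that clade B serpins are known to bind, 10 of 19 listed symbols were tested. In siLATS_p53 relative to siControl 3 rose, in siLATS 1 and in sip53 0, and none fell without the block, with medians of 0.26, 0.10 and 0.14, against 0.08, -0.07 and 0.06 for all entries tested. Of all entries 14.6%, 7.7% and 3.86% passed in these groups. The batch block gave 6 genes that were higher and 2 lower in siLATS_p53, 3 and 2 in siLATS, and 2 and 1 in sip53. With the block 39.2%, 32% and 26% of all entries passed. Without it, the kallikrein gene KLK8 rose by 0.91 ± 0.16 and the inflammatory caspase gene CASP1 by 0.62 ± 0.14 in siLATS_p53 (limma, adjusted p = 0.0135 and 0.0294), the third being PLAT. Over siLATS, siLATS_p53 was higher by 0.76 ± 0.16 for KLK8 and 0.55 ± 0.14 for CASP1 (limma, adjusted p = 0.025 and 0.0423). ELANE, PRTN3 and CTSG, the leukocyte proteases of SERPINB1 and SERPINB6, were at the floor in all libraries, as were GZMB, F2, PLG and CASP5. FURIN, the target of SERPINB8, was between 12.02 and 12.35 and passed in no comparison without the block. CTSL1, a target of SERPINB13, was between 11.82 and 12.25 and likewise did not pass. With it FURIN was higher in siLATS_p53 and sip53 (0.22 and 0.24, limma, adjusted p = 0.0202 and 0.0229), and CTSL1 lower in siLATS_p53 and siLATS (-0.34 and -0.21, adjusted p = 0.00282 and 0.0423).

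Of 18 listed cathepsin and cystatin symbols 15 were tested. Relative to siControl, 2 rose and 1 fell in siLATS_p53, 2 rose and 1 fell in siLATS, and none passed in sip53, with medians of 0.26, 0.03 and 0.06, against 0.08, -0.07 and 0.06 for all entries tested. The shares of all entries that passed in these groups were 14.6%, 7.7% and 3.86%. Blocking on the batch, 7 were higher and 4 lower in siLATS_p53, 3 and 3 in siLATS, and 3 and 1 in sip53. With the block the shares of all entries were 39.2%, 32% and 26%. Without it, CTSC, which encodes the activator of granule proteases, fell by 0.66 ± 0.12 in siLATS_p53 and 0.55 ± 0.12 in siLATS (limma, adjusted p = 0.0139 and 0.0396). The lysosomal gene CTSA rose by 0.52 ± 0.07 and 0.38 ± 0.07 in the same groups (limma, adjusted p = 0.00541 and 0.0267). CTSZ rose by 0.37 ± 0.09 in siLATS (limma, adjusted p = 0.0464), and the cystatin gene CSTB by 0.40 ± 0.11 in siLATS_p53 (limma, adjusted p = 0.0467).

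No keratinocyte differentiation gene of the list passed as higher in siLATS, where SERPINB7 and SERPINB13 rose. Of 15 tested from a list of 18, none rose and 1 fell in siLATS relative to siControl, TGM1, the transglutaminase of the cornified envelope, by 0.78 ± 0.16 (limma, adjusted p = 0.0362). None passed in sip53 without the block. Of all entries 14.6% passed in siLATS_p53, 7.7% in siLATS and 3.86% in sip53. Under the block 5 were higher and 3 lower in siLATS_p53, 0 and 8 in siLATS, and 4 and 2 in sip53. With the block 39.2%, 32% and 26% of all entries passed. Without it, in siLATS_p53 SPRR2A rose by 1.19 ± 0.22 and the elastase inhibitor gene PI3 fell by 0.97 ± 0.23 (limma, adjusted p = 0.0141 and 0.0306). The list's median was 0.13 in siLATS_p53, -0.52 in siLATS and 0.31 in sip53, against 0.08, -0.07 and 0.06 for all entries tested. Over siLATS, siLATS_p53 was higher for TGM1, SPRR2A and KRT10, by 1.15 ± 0.16, 1.56 ± 0.22 and 0.62 ± 0.17 (limma, adjusted p = 0.00784, 0.00734 and 0.048). SERPINB13 and SERPINB7 differed by -0.56 and -0.43 in that comparison.

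Of 17 listed serpins of other clades 7 were tested, and 1 rose in siLATS_p53, 1 rose in siLATS and 0 passed in sip53, all relative to siControl. In these groups 14.6%, 7.7% and 3.86% of all entries passed. Fitted with the block, 1 was higher and 1 lower in siLATS_p53, 2 and 2 in siLATS, and 0 and 1 in sip53. The blocked shares of all entries were 39.2%, 32% and 26%. The siLATS riser was SERPINF1, which was above the floor in the siLATS libraries alone, at 6.23 and 5.85, and is given no fold. It met the filter only through the group where it was high, so its call carries no weight here. It also enters the list's counts with the block and its medians. SERPINH1, the collagen chaperone, rose by 0.43 ± 0.10 in siLATS_p53 (limma, adjusted p = 0.0279). The medians were -0.15 in siLATS_p53, 0.09 in siLATS and 0.00 in sip53, against 0.08, -0.07 and 0.06 for all entries tested. SERPINA1 and SERPINA3 differed more between batches than between groups. SERPINA3 was 9.66 to 10.71 in batch 1 and 5.86 to 6.69 in batch 2, whereas the batches of SERPINB2 differed by 0.13 at most within a group.

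Across the 8 libraries SERPINB2, SERPINB7 and SERPINB13 formed a set of like patterns, with SERPINB5 as their mirror image. As a description over libraries that share groups and batches, Pearson's r was 0.93 between SERPINB2 and SERPINB7, 0.88 between SERPINB2 and SERPINB13 and 0.90 between SERPINB7 and SERPINB13. SERPINB5 ran opposite to these, with r of -0.85, -0.89 and -0.86 for SERPINB2, SERPINB7 and SERPINB13. SERPINB1 and SERPINB8, which lie on different chromosomes, had an r of 0.95. SERPINB6 ranged from -0.56 with SERPINB13 to 0.42 with SERPINB1.

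For each member with a call, the 3 entries most like it in Pearson's r over the 8 libraries were taken from 6110 entries above the median level. STARD13 (r = 0.99), UTRN and MYOF (0.99 each) were most like SERPINB2, and DKK1 (0.99), IL18 (0.99) and NPC1 (0.98) most like SERPINB7. TNC (0.99), DUSP14 (0.99) and HPS5 (0.98) were most like SERPINB13, and CLMP, MAP4K4 and PLEKHB2 (0.99 each) most like SERPINB5. For SERPINB6 they were MDH1, INTS7 and NDUFB3 (0.98 each), and for SERPINB1 KCMF1, SEC61G and SIK1 (0.94, 0.93 and 0.93). DKK1, which encodes a secreted antagonist of Wnt signalling, was 12.29 and 12.19 in siLATS_p53, 12.70 and 12.47 in siLATS, 11.23 and 11.27 in sip53, and 11.47 and 11.43 in siControl. Like SERPINB7 it was higher in every library with LATS siRNA than in any without. TNC, which encodes the matrix protein tenascin C, was 12.02 and 12.19 in siLATS_p53, 12.33 and 12.40 in siLATS, 11.71 and 11.78 in sip53, and 11.63 and 11.76 in siControl.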

How the data were processed

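MCF10A messenger RNA was prepared with a TruSeq RNA v2 kit, which does not keep the strand, and all libraries shared a lane, per the labels' protocols. TopHat and hg19 are named in the submitters' processing notes. Of the counter, annotation and scaling, nothing is stated. The authors deposited log2 expression levels per gene symbol, with lower values set to a floor of 5, so changes of weakly expressed genes come out too small. Table and per-library files were identical for 8 of 8 libraries. Depth is unknown, and the summed linear signal was 23.7 to 24.9 M per library.

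Entries that exceeded the floor in 2 or more libraries (12315) entered 1 limma fit (version 3.58.1, R 4.3.3) of all 4 groups with 4 residual degrees of freedom and a variance trend on the mean. Adjustment was by Benjamini-Hochberg over these entries at a threshold of 0.05, and the fit was tested on simulated data. Those data were drawn without a batch effect, so they cannot show how the fit behaves with the shared batches here. Per the labels, a replicate number marks a shared batch. Batch deviations correlated at 0.565 to 0.726 between groups, so the numbers pair the libraries. Unless the block is named, SEs, intervals, figure symbols and calls with a library left out have no batch term in the fit. Their spread therefore includes the batch offset. For SERPINB5 in siLATS relative to siControl the SE was 0.18 without the block and 0.07 with it. The blocked value is printed where it changes a member's call, and blocked counts stand beside the lists' counts. Members, lists and tests were chosen with earlier results of these data known. The text names the members, listed genes that passed, flanking genes and the 3 entries most like each called member. Some listed genes are not reported here and are left out of counts and medians. Listed genes that did not pass were added after their values were seen. Other settings were median-of-ratios rescaling, filters on low values, pseudocounts of 1 and 32, other variance models, fits of only the groups compared, a batch block and leaving out each library.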

Additional observations from a re-analysis of the deposited data

Results flagged for a closer look

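The effect of LATS siRNA, or of p53 siRNA, ran in opposite directions in each batch with and without the other siRNA, or the interaction passed with a batch block, for 6 members. Small effects could meet this rule, as those of SERPINB6 below did. How many of all entries met it was not counted, so the 6 members cannot be set against a share. The interaction is the siLATS_p53 minus sip53 difference less the siLATS minus siControl difference. It was 0.97 for SERPINB1, 0.47 for SERPINB2, 0.75 for SERPINB5, 0.38 for SERPINB6, 0.40 for SERPINB8 and -0.66 for SERPINB13. None passed without the block (limma, adjusted p = 0.740 to 0.749). With it SERPINB1, SERPINB2, SERPINB5 and SERPINB13 passed (limma, adjusted p = 0.00934, 0.0473, 0.00779 and 0.0173), and SERPINB6 and SERPINB8 did not (0.0803 and 0.0802). Of all entries 2.03% passed with the block. The median interaction of all entries tested was 0.10 without rescaling and 0.00 after it, so part of each positive value is shared by the table. With the block and rescaling, SERPINB1 was at 0.88, SERPINB5 at 0.65 and SERPINB13 at -0.76, and these 3 passed (limma, adjusted p = 0.0232, 0.0174 and 0.0174). In that fit 100 of 12285 entries passed. With p53 siRNA, LATS siRNA changed SERPINB8 by 0.16 and 0.14 in the 2 batches, against -0.20 and -0.30 without it. SERPINB6 changed by 0.11 and 0.08 with p53 siRNA, against -0.33 and -0.23 without it.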

How the results depend on the processing

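With 2 libraries a group, calls rested on the spread pooled over groups. Against siControl, siLATS had 5 called members, sip53 had 1 and siLATS_p53 had 4. There was 1 for siLATS_p53 against siLATS, 3 for siLATS_p53 against sip53 and 0 for the interaction. With only the 4 libraries compared in the fit they numbered 0, 0, 2, 0 and 0 for the first 5, the 2 being SERPINB2 and SERPINB5. Over all entries none passed in 4 of those comparisons (2050 to 3673 at an unadjusted p under 0.05) and 374 in siLATS_p53 against siControl. With a batch block, called members numbered 4 in sip53, 6 in siLATS_p53 against siLATS and 4 for the interaction, and with robust variances 4, 6 and 4, with 5 against sip53. With the block and rescaling they numbered 4, 4 and 3. Without the mean-variance trend sip53 had 0. Testing entries above the floor in all 8 libraries gave 2 in siLATS_p53 against siLATS. Leaving out each library in turn gave 2 to 5, 0 to 0, 1 to 4, 0 to 2, 1 to 3 and 0 to 0 in the same order. The block moved whole-table calls to 3937, 3199, 4832, 5361, 2720 and 250, against 948, 475, 1792, 1791, 451 and 0 without it. Leaving out a library gave 43 to 700, 18 to 165, 553 to 1265, 12 to 1837, 49 to 362 and 0 to 0. Rescaling turned the split of higher and lower calls to 435 and 349 in siLATS, against 346 and 602, to 116 and 331 in sip53, against 217 and 258, to 832 and 921 in siLATS_p53, against 1117 and 675, and to 546 and 650 in siLATS_p53 against siLATS, against 1395 and 396. The sign turned only for differences that did not pass. SERPINB8 in siLATS_p53 against siLATS was -0.0126 after rescaling with or without the block. With a library left out, SERPINB6 in sip53 ranged over -0.00305 to 0.15, SERPINB13 in sip53 over -0.0396 to 0.25, and the SERPINB7 interaction over -0.30 to 0.0921. The causes of these shifts were not tested. No call of a member turned sign in any setting run.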
